A study of Drosophila melanogaster with 2 samples.

Results

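The nuclear genes of the respiratory chain were examined as targets of Doc2, a T-box transcription factor of Drosophila melanogaster. They were taken from the protein-coding genes of X, the 4 large autosome arms and chromosome 4, as those whose symbol starts with ND-, UQCR-, ATPsyn or COX plus a digit, and SdhA, SdhB, SdhC and SdhD. The rule found 84 of 13945 genes: 40 of complex I, 4 of complex II, 9 of complex III, 16 of complex IV and 15 of complex V. By symbol, 21 were paralogs, second copies such as COX7AL beside COX7A, and the other 63, here called first copies, were the original or only copy. For 4 paralogs the first copy has a symbol outside the rule (levy, cype or sun). Chromatin bound by Doc2-eGFP was profiled by immunoprecipitation followed by sequencing (ChIP-seq) in whole embryos of the strain Doc2-GFP, aged 0 to 18 h, with 1 group of 2 biological replicates. The insertion adds eGFP to Doc2, the labels describe an anti-GFP antibody in the description and Doc2 in the antibody field, and chromatin was sonicated to 200 to 800 bp. Every library came from the same strain and from whole animals, so binding in a few cells and weak binding in many cannot be told apart. No untagged group was analysed here, nor was the control used for peak calling.

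The respiratory chain passes electrons from NADH and succinate to oxygen in the inner mitochondrial membrane. Complex I (NADH dehydrogenase) and complex II (succinate dehydrogenase) feed electrons in, complex III (cytochrome bc1) and complex IV (cytochrome c oxidase) pass them on, and complex V (ATP synthase) uses the proton gradient to make ATP. A few subunits are encoded by mitochondrial DNA and the rest by nuclear genes, most of which nearly every cell transcribes. In Drosophila many of these genes have a duplicated copy, and such copies are known for testis-biased expression.

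Sequence is shown for the places the results turn on. These are the summit with the highest signal at a chain gene (ND-ASHI) and ranked summits at 2 first copies (ND-51 and COX5B) and 1 paralog (ATPsynGL). For contrast, a promoter with no ranked summit within 500 bp is shown (ATPsynB). In the series ranked list not used here, peaks nearest to ATPsynB had a signal of up to 61.9, and the closest summit was 683 bp from its annotated start. The first 4 stretches shown are parts of peaks and the last is the 250 bases before the annotated start. They are read 5′ to 3′ on the gene's strand from the RefSeq copy of the dm6 assembly, and capitals mark the motifs searched (TATAAA or ACAGTG, on either strand). The positions are chrX:6679209-6679508 (minus strand) for ND-ASHI, chr2L:6062807-6062988 (minus) for ND-51, chr2L:6557503-6557699 (plus) for COX5B, chr2L:7746772-7747071 (plus) for ATPsynGL and chr3L:9729749-9729998 (plus) for ATPsynB. The ND-51 and COX5B peaks are cut short where transcribed sequence begins.
ND-ASHI: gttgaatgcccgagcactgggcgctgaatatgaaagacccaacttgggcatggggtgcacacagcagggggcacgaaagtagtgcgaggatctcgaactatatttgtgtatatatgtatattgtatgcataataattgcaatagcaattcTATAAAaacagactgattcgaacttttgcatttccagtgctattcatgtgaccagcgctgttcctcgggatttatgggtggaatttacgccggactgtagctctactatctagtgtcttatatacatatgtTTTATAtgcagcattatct
ND-51: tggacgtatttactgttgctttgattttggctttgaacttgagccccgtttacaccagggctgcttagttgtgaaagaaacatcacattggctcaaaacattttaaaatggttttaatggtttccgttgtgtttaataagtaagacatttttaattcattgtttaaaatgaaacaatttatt
COX5B: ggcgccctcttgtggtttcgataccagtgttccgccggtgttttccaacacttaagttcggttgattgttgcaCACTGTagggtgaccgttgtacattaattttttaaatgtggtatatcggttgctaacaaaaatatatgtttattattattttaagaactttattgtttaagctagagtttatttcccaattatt
ATPsynGL: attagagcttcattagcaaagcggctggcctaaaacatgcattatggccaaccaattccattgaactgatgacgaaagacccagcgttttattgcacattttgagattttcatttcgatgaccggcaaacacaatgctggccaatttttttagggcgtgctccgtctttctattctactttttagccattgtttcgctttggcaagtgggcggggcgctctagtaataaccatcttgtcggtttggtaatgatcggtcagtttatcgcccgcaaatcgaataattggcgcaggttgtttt
ATPsynB: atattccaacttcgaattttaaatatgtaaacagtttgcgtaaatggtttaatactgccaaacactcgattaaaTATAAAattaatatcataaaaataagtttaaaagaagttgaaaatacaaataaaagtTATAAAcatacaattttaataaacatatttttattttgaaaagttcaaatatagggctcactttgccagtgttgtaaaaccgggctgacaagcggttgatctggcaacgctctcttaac
In the ND-ASHI stretch the summit is base 150 and the first TATAAA starts at base 151. The ND-51 and ATPsynGL stretches hold none of the 10 motifs.

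Peaks had been filtered by the irreproducible discovery rate (IDR), which measures how well peak ranks repeat between compared sets. The series list held 1230 peaks, of which 1140 lay on the 6 chromosomes, with a score of at least 830, an IDR of 0.01. A ranked list of 145810 peaks (140206 on the 6 chromosomes) held the same peaks before that threshold and many weak ones. The own lists of the replicates held 777 and 468 thresholded peaks and 120746 and 124045 ranked peaks on these chromosomes, for replicates 1 and 2 in that order. Signal is the authors' value for each peak, and its scale is unknown. Values from different lists are printed side by side, but they may differ in scale, so peaks are ranked only within a list. The lists hold no read counts, which leaves the depth unknown. Differences between chain genes and other genes are descriptions without a test.

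Few chain genes had a series peak. By the nearest transcription start site (TSS) of a protein-coding gene, 3 of 84 (3.57%) received one, against 965 of 13861 other genes (6.96%). They were ND-ASHI and ND-B14.7 of complex I and COX6AL of complex IV, and no gene of complexes II, III or V received a series peak. Counted by a series summit within 500 bp of any TSS of the gene, 3 chain genes (3.57%) were ND-ASHI, ND-MWFE and COX6AL, against 697 other genes (5.03%). Chain genes had less genome nearest to them, with a median of 2430 bp, against 4264 bp for other genes. Per Mb of that space they held 3.39 series peaks and other genes 8.55. UQCR-11, ND-MLRQ and ND-AGGG, none with a series peak, took 476 kb of the chain genes' 885 kb, and without these 3 the rate was 7.33. Of the chain genes, 12 (14.3%) lay within 5 kb of a series summit, against 13.7% of other genes. Among other housekeeping groups, 13 of 92 cytosolic ribosomal protein genes (14.1%), 3 of 73 mitochondrial ribosomal protein genes (4.11%) and 1 of 48 proteasome subunit genes (2.08%) received a series peak by the nearest TSS. By a series summit within 500 bp of any TSS the counts were 16 (17.4%), 7 (9.59%) and 1 (2.08%) in the same order.

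ND-ASHI (FBgn0029888), an accessory subunit of complex I, had the highest signal. Its series peak (X, 6679184 to 6679533) had a signal of 166.8, which ranked 247 of 1140, and a score of 1000. The peak was in the thresholded lists of both replicates, with a signal of 96.8 in replicate 1 and 64.5 in replicate 2. The summit lay 241 bp upstream of the outermost of 3 ND-ASHI TSSs, and the other TSSs were 1099 and 1198 bp from it. On the opposite strand it was 281 bp upstream of a TSS of Fum1, which encodes fumarase of the citrate cycle, and inside an intron of a longer Fum1 transcript. The facing TSSs of ND-ASHI and Fum1 were 522 bp apart, so the summit sits between these TSSs. In replicate 1 the summit was 30 bp nearer to Fum1, and the nearest-gene rule then gave it to Fum1.

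ND-MWFE (FBgn0085468), another accessory subunit of complex I, shared a series peak with its neighbour TppII, a gene for a peptidase (2R, 13158294 to 13158643; signal 121.2, rank 451). The summit was 197 bp upstream of the only ND-MWFE TSS and 24 bp upstream of a TppII TSS, in an intron of a longer TppII transcript. It was in both thresholded replicate lists, with 71.0 in replicate 1 and 54.5 in replicate 2. COX6AL (FBgn0050093), a paralog of levy, which encodes subunit VIa of cytochrome c oxidase, had its summit 132 bp downstream of its TSS, in its coding exon (2R, 15943985 to 15944334). That signal was 79.5, with a score of 843 and rank 899, and the ranked lists gave 43.0 in replicate 1 and 27.2 in replicate 2. ND-B14.7 (FBgn0034576), a membrane-arm subunit of complex I, was nearest to a peak 9048 bp downstream of its TSS in intergenic sequence (2R, 21033951 to 21034300). Its signal was 72.8, with a score of 859 and rank 1005, and 42.7 in each replicate's ranked list. The scores there were 510 in replicate 1 and 44 in replicate 2. With TSSs of any gene type counted, ND-B14.7 no longer received this peak. Neither the COX6AL nor the ND-B14.7 peak was in a replicate's thresholded list, and the COX6AL peak was missing from the conservative series list too. Of the 3 series peaks with a chain gene as nearest, 1 overlapped a thresholded peak of both replicates, against 33.9% of all series peaks. Their median signal was 79.5, against 104.6 for all 1140 series peaks.

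Ranked peaks gave values for more genes, at weaker repeatability. Among the highest peaks at chain gene TSSs outside the series list, the best score was 402 (COX7AL, −log10 IDR 0.968), against the series threshold of 830. Scores went down to the list's minimum of 47, as at ND-30, UQCR-C2 and ATPsynCF6L (−log10 IDR 0.115). Such peaks repeat poorly between the compared sets and do not establish binding. A ranked peak was nearest to 56 chain genes (66.7%), against 80.8% of other genes. A ranked summit lay within 500 bp of a TSS at 34 of 84 chain genes (40.5%), against 64.2% of other genes. In the own ranked list of replicate 1 the count was 42, against 63.1% of other genes, and in that of replicate 2 it was 34 (40.5%), against 61.3%. The chain genes were below other genes in all 3 lists. In the other deposited series ranked list the count was 33, against 63.4% of other genes. It shared 30 genes with the list used, lacked a summit at ATPsynC, COX7AL, ND-B18 and UQCR-C2, and had one at ND-18, ND-24 and ND-75. By the same count the share was 57.6% of cytosolic ribosomal, 49.3% of mitochondrial ribosomal and 60.4% of proteasome genes.

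First copies and paralogs differed in this count. Of 63 first copies, 20 (31.7%) had a ranked summit that close to a TSS, as did 14 of 21 paralogs (66.7%). In replicate 1 these counts were 26 (41.3%) and 16 (76.2%), and in replicate 2 they were 20 (31.7%) and 14 (66.7%). Of the first copies, 30 (47.6%) had none in the series ranked list or the ranked list of either replicate, and 13 (20.6%) had one in all 3. For paralogs these counts were 2 (9.52%) and 10 (47.6%), and for other genes 23.0% and 47.4%. The contrast depended on the window, and the other windows were added after the values were seen. Within 250 bp it was 17 of 63 first copies and 5 of 21 paralogs, against 43.5% of other genes, and within 1000 bp it was 34 and 15, against 77.7%.

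**Figure D1:**
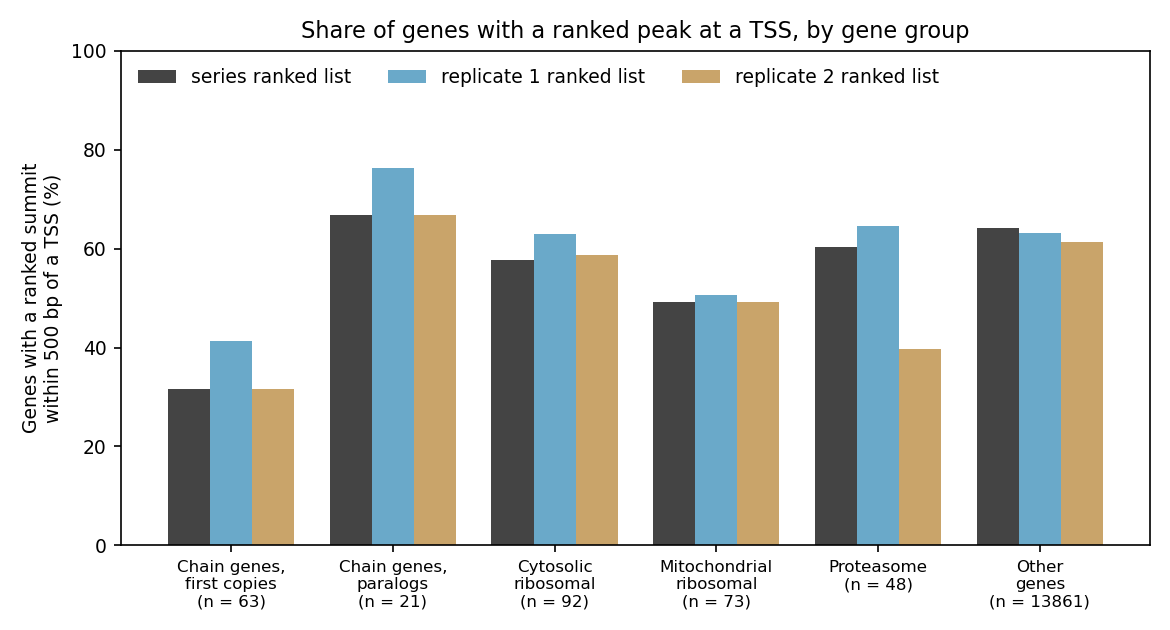
Share of genes (%) with a ranked summit within 500 bp of a TSS, for 6 gene groups (number of genes under each) in the series ranked list and the ranked lists of replicates 1 and 2. First copies of the chain are the lowest group in the series list, at 31.7%, and their paralogs stand at 66.7%, near the 64.2% of other genes.

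The layout of the genes differed between the same groups. A TSS of another gene lay on the opposite strand within 500 bp for 37 first copies (58.7%), 3 paralogs (14.3%) and 27.7% of other genes. Among genes with such a neighbour, a ranked summit was at a TSS of 15 of 37 first copies (40.5%), against 60.1% of other genes. Among genes without one, it was at 5 of 26 first copies (19.2%) and 12 of 18 paralogs (66.7%), against 65.7% of other genes. First copies had a median of 2296 bp of nearest genome and paralogs 5491 bp. Base composition was close, with a median of 41.7% G and C over 1 kb for first copies, 42.4% for paralogs and 42.4% for other genes. The part of neighbours, gene spacing or promoter activity in the lower count was not tested.

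**Figure D2:**
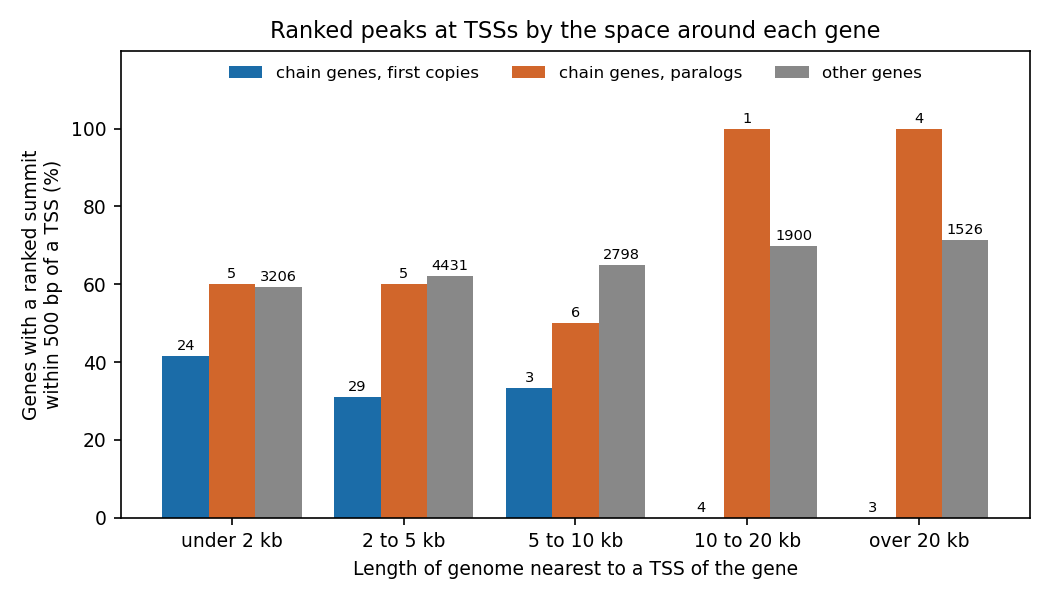
Share of genes (%) with a ranked summit within 500 bp of a TSS, by the amount of genome that lies nearest to the gene, with the number of genes above each bar. In the 2 to 5 kb class the share is 31.0% of 29 first copies, 60.0% of 5 paralogs and 62.2% of 4431 other genes, and from 10 kb upwards none of the 7 first copies had one.

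Complex by complex, a ranked summit was within 500 bp of a TSS at 18 of 40 genes of complex I, 0 of 4 of complex II, 2 of 9 of complex III, 7 of 16 of complex IV and 7 of 15 of complex V. Among first copies these counts were 13 of 34, 0 of 4, 1 of 6, 2 of 8 and 4 of 11. For paralogs they were 5 of 6 in complex I, 1 of 3 in complex III, 5 of 8 in complex IV and 3 of 4 in complex V. Complex II has no paralog in the list. The share of other genes beside all these counts was 64.2%. ND-MNLL is a special case, since each of its TSS positions is also a TSS of CG45089, so the nearest-gene rule could give it no peak.

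**Figure D3:**
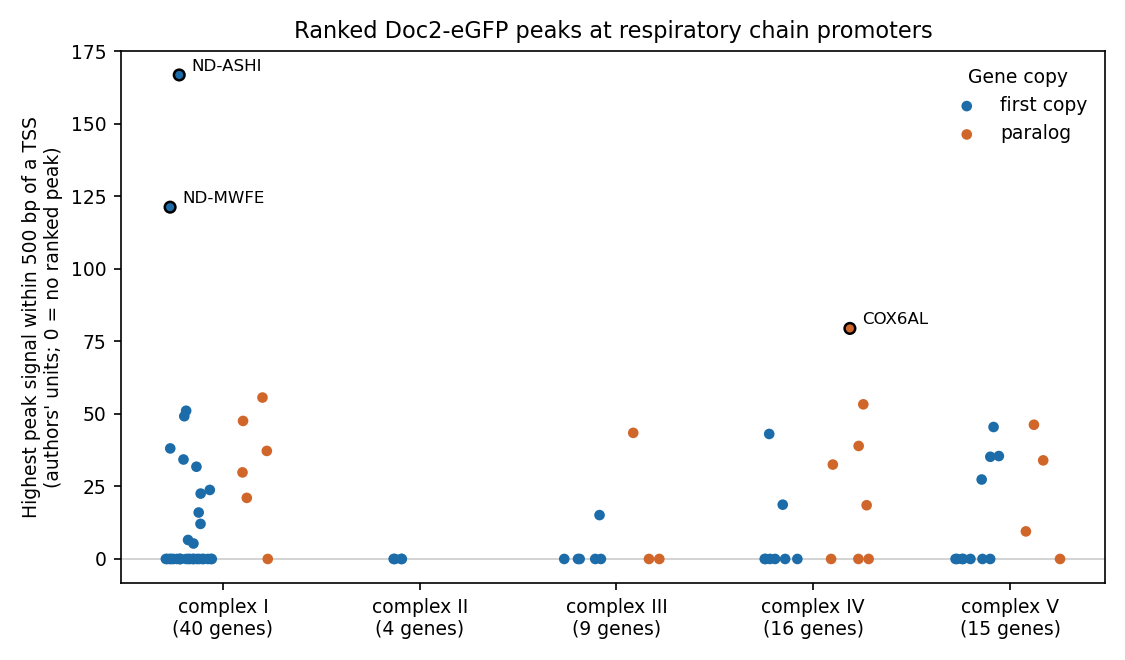
Highest signal (authors' units) of a ranked peak within 500 bp of a TSS for each of the 84 genes, by complex, with 0 for no ranked peak and black rings for peaks that are in the series list. ND-ASHI (166.8) and ND-MWFE (121.2) stand above all others, COX6AL (79.5) is next, and the other 31 genes with a peak lie between 5.33 and 55.6.

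Within complex I, 7 first copies encode core subunits, most of which carry the flavin, iron-sulphur clusters or the quinone pocket. The series ranked list held a summit at the TSSs of 2 of the 7, ND-51 and ND-30. ND-51 (the flavoprotein subunit that takes electrons from NADH) had a signal of 51.1 at 200 bp upstream, with 22.2 in replicate 1 and 29.2 in replicate 2, and that summit was given to the neighbour CG13994. ND-30 had 12.1 at 162 bp downstream, with 9.0 in replicate 1 and no overlapping peak in replicate 2. ND-75, ND-49, ND-24, ND-23 and ND-20 had none within 500 bp in the series ranked list used. The closest summit of that list was just outside for ND-75 (601 bp) and ND-23 (623 bp). It was farther for ND-24 (3252 bp), ND-20 (7325 bp) and ND-49 (19914 bp). The other series ranked list had a summit 424 bp downstream of ND-24 (19.2) and 118 bp downstream of ND-75 (11.2). Of the replicates' own lists, replicate 1 had a summit at ND-24 (11.6) and ND-23 (13.6) and replicate 2 at ND-75 (4.52). ND-49 and ND-20 had none in any of these 4 lists. Of the other 27 first copies of complex I, 11 had a ranked summit in the series list. ND-42, an accessory subunit, had 49.2 at 242 bp upstream, with 23.8 in replicate 1 and 17.8 in replicate 2. That summit was nearest to Cchl, the gene on the other side.

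Succinate dehydrogenase had no ranked summit at any of its 4 genes in the series list or in replicate 2. In replicate 1, SdhC (the membrane anchor with SdhD) had one of 5.79 and SdhD one of 9.51. SdhA (the flavoprotein) and SdhB (the iron-sulphur subunit) had none within 500 bp in any of the 3 lists. The closest summit of the series ranked list was 4233 bp from SdhA and 672 bp from SdhB. In complex III, the core protein gene UQCR-C2 had 15.1 at 270 bp downstream, with 16.1 in replicate 1 and no overlapping peak in replicate 2. UQCR-C1, the other core protein gene, had none within 500 bp in any list. Its closest summit in the series ranked list lay just outside, at 611 bp, and peaks nearest to it had a signal of up to 51.3. The paralog UQCR-14L had 43.5 at 71 bp downstream, with 22.0 in replicate 1 and 18.0 in replicate 2, and its first copy UQCR-14 had none.

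In complex IV, COX5B had 43.1 at 250 bp upstream, with 27.1 in replicate 1 and 21.0 in replicate 2, and the summit was nearest to IFT52. Its paralog COX5BL starts 122 bp after COX5B ends and had 38.9 at 251 bp downstream. Replicate 1 gave 4.79 at that place and replicate 2 gave 33.8. COX7AL, which lies 2625 bp from COX7A, had 53.3 at 305 bp downstream, with no overlapping peak in replicate 1 and 25.3 in replicate 2. The other series ranked list had no summit within 500 bp of COX7AL. COX7A had a summit within 500 bp in replicate 2 alone, with 29.3. Its closest summit was 550 bp away in the series ranked list used and 4555 bp away in the other. Peaks of the list used that were nearest to COX7A had a signal of up to 38.0. COX7CL and COX7C, 281 bp apart, had no summit in the series ranked list or in replicate 1, and 14.2 and 18.2 in replicate 2. The sources used here do not say how reads that match more than 1 copy were placed.

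In complex V, the F1 head and central stalk had a ranked summit at 1 of 3 first copies, the rotor subunit ATPsyngamma, with 45.5 at 495 bp downstream (27.0 in replicate 1 and 18.5 in replicate 2). The peripheral stalk had one at 1 of 4, ATPsynCF6 (35.5). The membrane subunits had one at 2 of 4, ATPsynE (35.2) and ATPsynC (27.4), the gene of the rotor ring. ATPsynbeta, the catalytic subunit, ATPsynB, ATPsynO, ATPsyndelta and ATPsynG had none in any of the 3 lists. Among the paralogs, ATPsynGL had 46.3 at 353 bp upstream, with 37.3 in replicate 1 and 10.8 in replicate 2. The complex I paralogs ND-24L and ND-B14.5AL had 55.6 at 286 bp downstream and 47.6 at 430 bp upstream. ND-24L had 21.0 in replicate 1 and 33.7 in replicate 2, and ND-B14.5AL had 17.2 and 22.3.

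**Figure D4:**
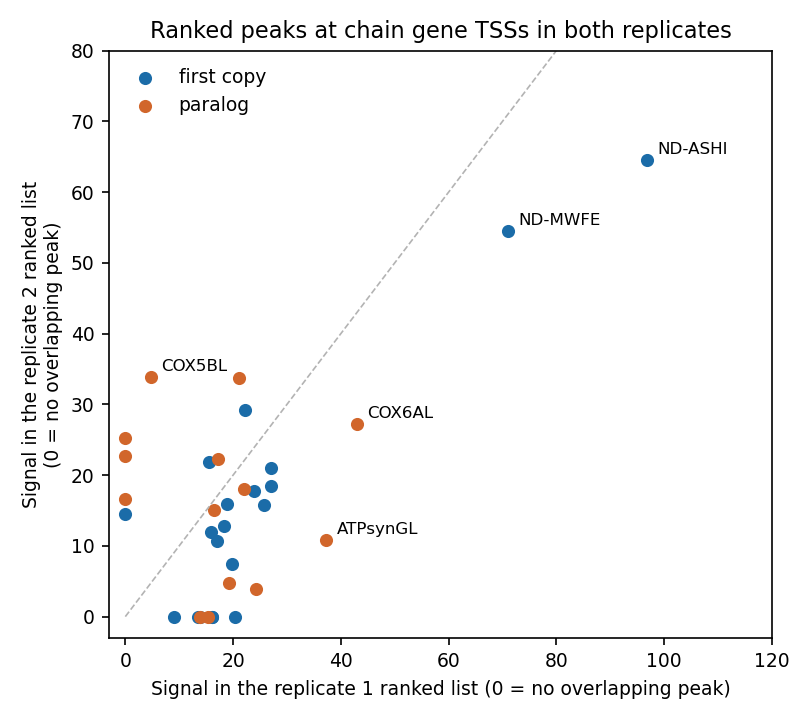
Signal of the peaks that overlap the highest ranked peak at the TSS of each of 34 chain genes, in the ranked list of replicate 1 (x axis) and of replicate 2 (y axis), with 0 for no overlapping peak and a dashed line of equal values. The 2 lists may differ in scale, so the side of the line on which a point lies has no meaning here. ND-ASHI (96.8 and 64.5) and ND-MWFE (71.0 and 54.5) are the highest in both replicates, and 12 of 34 points lie on an axis.

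Of the 34 peaks, 22 overlapped a ranked peak of both replicates, 8 one of replicate 1 alone and 4 one of replicate 2 alone. The summit was upstream of the TSS at 17 genes and downstream at 17. It lay in a coding exon at 13 genes, in an intron at 8, in a 5' UTR at 5 and in intergenic sequence at 8. Another gene was nearest to the summit at 6 of the 20 first copies and at 0 of the 14 paralogs. By signal, 9 of the 34 were at or above the 90th percentile of all ranked peaks and 10 were below the median. By chromosome, 4 of 12 genes on X, 6 of 16 on 2L, 6 of 17 on 2R, 9 of 19 on 3L, 9 of 18 on 3R and 0 of 2 on chromosome 4 had such a peak. The counts of this paragraph were not made for other genes, so they show nothing particular to chain genes. Each of the 34 is the highest peak of its gene in the window, which favours high percentiles.

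Paralogs were also set beside their own first copies in the same list. In the series ranked list the paralog had the higher signal within 500 bp of a TSS in 9 of 21 pairs, the first copy in 6, and neither had a peak in 6. The counts were 10, 7 and 4 in replicate 1 and 9, 7 and 5 in replicate 2. In the series ranked list the first copy had no summit that close in any of the 9 pairs with a higher paralog. Where both copies had one, the first copy was higher in each pair. In the replicates' own lists the exceptions to this were ND-24L in replicate 1 and COX5BL and ATPsynCF6L in replicate 2. In 2 of the 6 pairs with a higher first copy that copy was levy, whose 170.0 stands beside 79.5 at COX6AL and 18.5 at COX6AL2. ATPsynCF6L had 9.50, against 35.5 at ATPsynCF6. ND-51L2 had 37.2, against 51.1 at ND-51.

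Away from TSSs, UQCR-11, ND-MLRQ and ND-AGGG, which border gene-poor stretches of 3L, were nearest to 499 of the 926 ranked peaks of chain genes (53.9%), over 476 kb of genome. Per 10 kb, chain genes had 10.5 ranked peaks and other genes 10.5. Among ranked peaks outside the series list, the one of highest signal was 13304 bp downstream of UQCR-11, with 183.3 and a score of 1000. A peak 1485 bp upstream of COX7AL2 had 90.7 and a score of 1000. Of 1403 ranked peaks with a score of at least 830, 1230 are in the series list, and the files do not say why the others were left out.

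Promoters were searched on both strands for 10 motifs as exact letters. The reverse complement of GGTCACAC shares 6 letters with GGTGTGA, so 1 stretch can hold both. In the 300 bases around a gene's 5′ end (250 before and 50 after), GGTCACAC, the core of promoter motif 1, was present at 16 of 84 chain genes (19.0%), against 7.7% of all 13945 promoters. It was at 15 first copies (23.8%) and 1 paralog (4.76%). CAGCTG, an E-box, was at 20 chain genes (23.8%), against 17.7% of all, with 19 first copies and 1 paralog. The DNA replication-related element TATCGATA was at 9 chain genes (10.7%), all first copies, against 9.36% of all. The nuclear respiratory gene element, searched as TTACATAA, TTATATAA and TTACGTAA, was at 5 (5.95%), against 5.18% of all. Within 100 bp to either side of the 5′ end it was at 9 chain genes (10.7%), against 2.32% of all. These were 8 genes of complex I (ND-18, ND-20, ND-30, ND-49, ND-ACP, ND-B14.7, ND-MNLL and ND-SGDH) and ATPsyngamma, all first copies. In 7 of the 9 the element began 16 to 90 bases downstream of the 5′ end, and in 6 of these it reached beyond the 50 bases that the 300-base window covers. A core T-box site, GGTGTGA, was at 4 (4.76%), against 2.87% of all. The ETS core GGAAGT was at 4 (4.76%), against 9.47% of all. TATAAA, the letters of a TATA box, was at 45 (53.6%), against 45.8% of all. It was counted at any position and on either strand, so these hits are not shown to be TATA boxes. Within 100 bp of the 5′ end it was at 25 (29.8%), against 29.2% of all. The 6-mer ACAGTG, picked because it led the peaks of this series, was at 15 (17.9%), against 13.9% of all. Within 100 bp of the summits of the 4 series peaks at or nearest to chain genes, TATAAA was present in 3 and the other 9 motifs in 0. Across the 1140 series summits TATAAA was present at 31.1% and ACAGTG at 22.6%.

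Other genes of mitochondrial energy supply were counted from lists by symbol, and symbols not found are left out. A list of chain and related genes named otherwise held RFeSP, Cyt-c1, ox, levy, cype, Cyt-c-p, Cyt-c-d, AIF, sesB, Ant2, porin, Nmdmc and sun. Of these 13, AIF, sesB, Ant2, porin and Nmdmc do not encode subunits of complexes I to V or cytochrome c. In this list RFeSP (the Rieske iron-sulphur protein of complex III) was nearest to a series peak, 10801 bp upstream of its TSS with a signal of 100.5. Summits given to a neighbour lay 142 bp upstream of levy (signal 170.0, nearest to wmd) and 347 bp downstream of Cyt-c-d, a cytochrome c gene (183.3, nearest to CG31808). With the ND-ASHI, ND-MWFE and COX6AL peaks, these were the series summits within 500 bp of a gene of the chain itself or of its named-otherwise list. Of 24 symbols listed as assembly factors, 12 were found, and 0 of these were nearest to a series peak. They include Oscillin, which is not an assembly factor. The factor CIA30, which acts in complex I assembly, had a series summit 139 bp upstream of its TSS, given to CG7601, with a signal of 781.5 that ranked 5. Of 12 citrate cycle genes, Idh3b (a subunit of isocitrate dehydrogenase) was nearest to a series peak, with 84.3 at 93 bp upstream. Of 14 genes for mitochondrial DNA and for nuclear regulators, mtSSB (the mitochondrial single-stranded DNA-binding protein) had 124.1 at 358 bp upstream and ERR (a nuclear receptor of metabolic genes) 87.5 at 278 bp upstream. Another series summit, 199 bp upstream of an ERR TSS with 157.6, was given to Atg18a. A ranked summit within 500 bp of a TSS was found at 3 of 13 chain and related genes and 7 of 12 genes of the assembly factor list. One was found at 6 of 12 citrate cycle genes and 7 of 14 regulators. Among all genes outside the 84 chain genes this share was 64.2%. Of those genes, 6.96% were nearest to a series peak and 5.03% had a series summit within 500 bp of a TSS. These lists are too short for their counts to be set apart from those shares.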

How the data were processed

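Peak lists on dm6 were used as deposited: a thresholded, a conservative thresholded and 2 ranked lists of the series, and a thresholded and a ranked list of each replicate. For the aligner and the caller: not given in the sources used here. Each peak carries a signal from the authors' caller and a score, the scaled IDR, both used as deposited. The deposited ranked lists also give the −log10 of the IDR, from which the score followed within 1 for 100.0% of 145810 peaks. The ranked list used was the one that contains all 1230 series peaks, since the other held 1215.

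Summits on the 6 chromosomes analysed were given to the gene with the nearest protein-coding TSS of Ensembl release 115, and positions are 1-based. All 84 members had the same start and end in RefSeq. A peak at a TSS had its summit within 500 bp of any TSS of the gene. Negative distances are upstream. The nearest-gene step alone was checked on simulated peaks, placed at TSSs far from any other TSS. Crowded promoters and the other counts were not checked this way. Genes named are the members with a series peak or a TSS within 500 bp of a series summit, the 8 next by ranked signal at a TSS, and up to 4 genes with a series peak per related list. Members described by role or by their copies, and the sequences shown, were picked after their values were seen. Members and lists were chosen with earlier results of these data known. No p-value was computed: 1 group of 2 replicates and lists without read counts allow no test over samples, and no counting interval is given. Analyses used Python 3.11.15, numpy 2.4.6, pandas 2.3.3 and matplotlib 3.10.9.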

Additional observations from a re-analysis of the deposited data

How the results depend on the processing

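No paired analysis was possible because there was 1 group. Of 57 alternatives, 33 left a count within 1.5 times of the reported one or a median unchanged, and 24 moved the value. Any change of a median counted as moved, even 239 bp against 241 bp. The count of chain genes with a series peak, reported as 3, was 1 with the series peaks above the median signal (3.76% of other genes), 5 with only the 5′ end of each gene as TSS (COX4, COX6AL, ND-ASHI, ND-B14.7 and ND-MWFE; 7.06% of other genes), and 0 to 1 with 1 replicate left out, where the own list of the other replicate was used (4.98% of other genes without replicate 2 and 3.04% without replicate 1). With every ranked peak of score 830 or more it was 5, against 7.12% of other genes, and with an IDR of at most 0.05 it was 8, against 15.5% of other genes (both added after seeing the data). Series peaks within 500 bp of a chain gene numbered 1 in the conservative list and above the median signal, and 0 to 1 with 1 replicate left out, against 2 reported by the nearest-gene rule. Their median signal, 79.5, was 119.8 in the conservative list, 166.8 above the median signal and 64.5 without replicate 1. The last value comes from a replicate's own list, whose scale may differ. The median distance, 241 bp, was 4644.5 bp in the conservative list and 239 bp without replicate 1. With 1 replicate left out, ranked peaks were nearest to 49 to 56 chain genes and lay within 500 bp of 34 to 42, of 20 to 26 first copies and of 14 to 16 paralogs. Windows chosen after seeing the data moved these: 22 chain genes and 5 paralogs within 250 bp, and 34 first copies within 1000 bp. Within 100 bp of the 5′ end, TTACATAA was at 6 chain genes (7.14%, against 1.05% of all promoters), TTATATAA at 1 (1.19%, against 1.06%), TTACGTAA at 2 (2.38%, against 0.237%), ACAGTG at 9 (10.7%, against 9.79%) and TATAAA at 25 (29.8%, against 29.2%). In the 300 bases these counts were 2, 3, 0, 15 and 45, and the cause was not tested. Leaving out the 3 genes with the most ranked peaks, added after seeing the data, moved the rate of series peaks per Mb to 7.33. Small counts and unknown read depth limit every value here.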
